A study of Mus musculus with 9 samples.

Results

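Autophagy delivers cytoplasmic cargo to the lysosome for breakdown, and 10 genes of this pathway and of its transcription factors TFEB and TFE3 were followed in the livers of mice given a tetracycline antibiotic. They were the rows of Tfeb, Tfe3, Sqstm1, Map1lc3b, Gabarapl1, Ulk1, Wipi1, Bnip3, Atg14 and Lamp1 among the 32285 genes of the deposited table, chosen by name, and all 10 had a mean of at least 10 normalized counts and were tested with 12100 genes in all. The 9 libraries were bulk liver RNA of male Tet-OFF mice, 3 each from controls, from mice given doxycycline (Dox) and from mice given tetracycline (Tc). Both drugs were drunk for 7 days from 4 weeks of age as 2 mg/mL in water that held 10 mg/mL sucrose. The comparison asked how far liver transcripts differ with each drug. The paper's interest was in effects of the drugs apart from genes placed under tetracycline control, which these groups cannot isolate, since reporter state changes with the drug. The age of the control mice and whether they drank sucrose were not stated separately.

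All 3 groups shared a genotype and a first treatment. The mice carried the tetracycline transactivator tTA and a tetO-driven Venus and mCherry reporter at Rosa26, and all had received tamoxifen, which through a CAG-driven CreERT2 removes a stop cassette in front of tTA. The controls were therefore untreated by Dox or Tc but carried the transgenes and had been given tamoxifen. In such mice the paper reports Venus expression without drug, and its repression by Dox or Tc at the concentration used. Each drug group thus differed from the controls in reporter state as well as in drug. The share of reporter state in the differences from Control was not tested. Dox and Tc have the same ring system and differ in where a hydroxyl group sits.

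Autophagy starts when nutrient signalling through mTORC1 falls. The ULK1 kinase and a PI3-kinase complex that holds ATG14 then start a membrane, WIPI proteins read the lipid made there, and lipidated ATG8 proteins such as LC3B and GABARAPL1 bind the membrane to receptors that carry cargo, such as p62 (Sqstm1) and BNIP3. The closed vesicle fuses with a lysosome whose membrane is lined by LAMP1. TFEB and TFE3 are held in the cytoplasm by mTORC1 and, when it is inactive, enter the nucleus, bind E-boxes of the form CACGTG and switch on lysosomal and autophagy genes; FOXO factors also act on some autophagy genes. In liver the pathway is known for supplying amino acids and lipids during fasting.

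Since the pathway's transcription factors read short sequences near the start of their targets, the promoter windows of the members were searched for CACGTG, which is its own reverse complement, for TCACGTG, which contains CACGTG, and for the FOXO-type words GTAAACA and ATAAACA, all on both strands. Each RefSeq window (GRCm38.p6) holds 250 bases before and 50 bases after a gene's start, and all 10 members had one. CACGTG was found in 3 of 10 members (Bnip3, Atg14 and Lamp1), against 8.09% of 27025 genes with a window. TCACGTG was found in Atg14 and Lamp1, against 4.29% of genes. ATAAACA was found in Gabarapl1, against 5.28% of genes, and GTAAACA in no member, against 4.05%. The following windows are shown, 5′ to 3′ on the gene's strand, for the 3 members with a CACGTG and for Gabarapl1 and Sqstm1, the members that passed the test with Dox, with CACGTG or ATAAACA in capitals.
Lamp1 promoter, chr8:13158911-13159210, plus strand: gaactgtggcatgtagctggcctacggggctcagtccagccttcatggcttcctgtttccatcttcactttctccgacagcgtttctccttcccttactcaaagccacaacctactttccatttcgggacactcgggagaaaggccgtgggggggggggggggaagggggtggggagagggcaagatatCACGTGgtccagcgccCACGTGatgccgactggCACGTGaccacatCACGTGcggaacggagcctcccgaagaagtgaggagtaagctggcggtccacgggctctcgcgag
Atg14 promoter, chr14:47568385-47568684, minus strand: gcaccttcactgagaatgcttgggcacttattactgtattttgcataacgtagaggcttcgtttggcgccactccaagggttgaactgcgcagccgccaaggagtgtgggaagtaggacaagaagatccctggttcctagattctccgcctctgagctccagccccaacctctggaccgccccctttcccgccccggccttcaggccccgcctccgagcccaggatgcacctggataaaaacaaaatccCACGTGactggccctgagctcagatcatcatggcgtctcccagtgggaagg
Bnip3 promoter, chr7:138909457-138909756, minus strand: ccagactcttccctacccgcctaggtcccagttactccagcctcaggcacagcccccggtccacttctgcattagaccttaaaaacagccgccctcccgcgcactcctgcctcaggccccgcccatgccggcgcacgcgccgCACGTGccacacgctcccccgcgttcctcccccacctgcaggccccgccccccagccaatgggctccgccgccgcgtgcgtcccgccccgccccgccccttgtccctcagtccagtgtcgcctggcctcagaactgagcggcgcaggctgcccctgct
Gabarapl1 promoter, chr6:129532942-129533241, plus strand: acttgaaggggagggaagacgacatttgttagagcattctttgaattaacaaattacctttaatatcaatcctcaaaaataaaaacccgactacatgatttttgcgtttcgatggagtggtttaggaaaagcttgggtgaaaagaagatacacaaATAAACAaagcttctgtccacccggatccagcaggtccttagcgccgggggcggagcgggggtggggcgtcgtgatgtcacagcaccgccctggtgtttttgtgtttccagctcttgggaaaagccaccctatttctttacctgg
Sqstm1 promoter, chr11:50210771-50211070, minus strand: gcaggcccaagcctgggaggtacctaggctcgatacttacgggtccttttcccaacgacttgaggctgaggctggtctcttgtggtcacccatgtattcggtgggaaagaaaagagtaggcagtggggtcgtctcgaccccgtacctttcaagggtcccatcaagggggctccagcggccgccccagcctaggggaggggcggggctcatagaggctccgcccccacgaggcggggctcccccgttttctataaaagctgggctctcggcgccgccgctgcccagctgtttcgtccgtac
Lamp1 held 4 copies of CACGTG, whose first bases lay at -61, -45, -28 and -15 from the start, and only 8 of the 32851 windows searched held 4 or more. The copy of Atg14 began at -1, that of Bnip3 at -108, and the ATAAACA of Gabarapl1 at -95. These are matches of letters and were not tested as binding sites.

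Before the comparisons, the libraries themselves need describing. Reads on genes, recovered from the normalized counts, ranged from 7426136 to 12183041 a library. The libraries numbered 3 were fitted as mixtures of those numbered 1 and 2 in their group. Weights on 1 and 2 were 58.6% and 40.9% for Control 3, 61.3% and 34.4% for Dox 3 and 59.8% and 36.9% for Tc 3. How close these fits were was not measured. Where Dox 1 and Dox 2 differed over 2-fold, Dox 3 lay between them for 4139 of 4264 genes. The same counts were 501 of 586 for Control and 962 of 1022 for Tc. Among the members, whatever their difference, library 3 lay between for 9 of 10 with Dox, 4 of 10 in Control and 5 of 10 with Tc. Values over 3 libraries may thus not be values over 3 mice. The main fit still counted each of the 9 libraries as a separate sample, and each call is given with and without libraries 3. If libraries 3 repeat the others, p-values of all 9 libraries are too small. The libraries Dox 1 and Dox 2 also stood apart from each other, with a median difference in size over all tested genes of 0.70 on the log2 scale, against 0.22 between Control 1 and 2 and 0.26 between Tc 1 and 2. Nothing in the labels names the mouse behind a library.

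Differences were tested with limma on log2(normalized count + 1) in 1 model of all 9 libraries, with Benjamini-Hochberg adjustment over 12100 genes, and a gene was called where its adjusted p was under 0.05 and its fold change over 2. In this fit 2 of the 10 genes were called with Dox against Control, Gabarapl1 and Sqstm1, both higher, where 5% of all tested genes were called, 1.14% higher and 3.86% lower. With Tc against Control 0 of 10 were called, against 0.165% of all genes, and with Dox against Tc 0 of 10, against 0.215%. At an unadjusted p under 0.05 by limma, 3 members differed with Dox against Control (Tfe3, Sqstm1 and Gabarapl1), against 29.1% of all genes. With Tc against Control 0 did, against 11.7%, and with Dox against Tc 3 did (Sqstm1, Gabarapl1 and Ulk1), against 21.7%. DESeq2 on the recovered reads called Gabarapl1 and Sqstm1 with Dox (8.71% of all genes, 2.94% higher and 5.77% lower), 0 of 10 with Tc (1.41%), and Sqstm1 alone between the drugs (4.67%). Without libraries 3, limma and DESeq2 called 0 of 10 in each comparison; limma called 0% of 12096 genes, and DESeq2 0.851% with Dox, 0.0703% with Tc and 0.244% between the drugs. At an unadjusted p under 0.05, limma without libraries 3 gave Sqstm1 and Gabarapl1 with Dox (8.58% of all genes), none with Tc (1.98%) and Sqstm1 between the drugs (3.75%). In bulk liver, fewer cells of a type and less RNA per cell cannot be told apart.

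**Figure D1:**
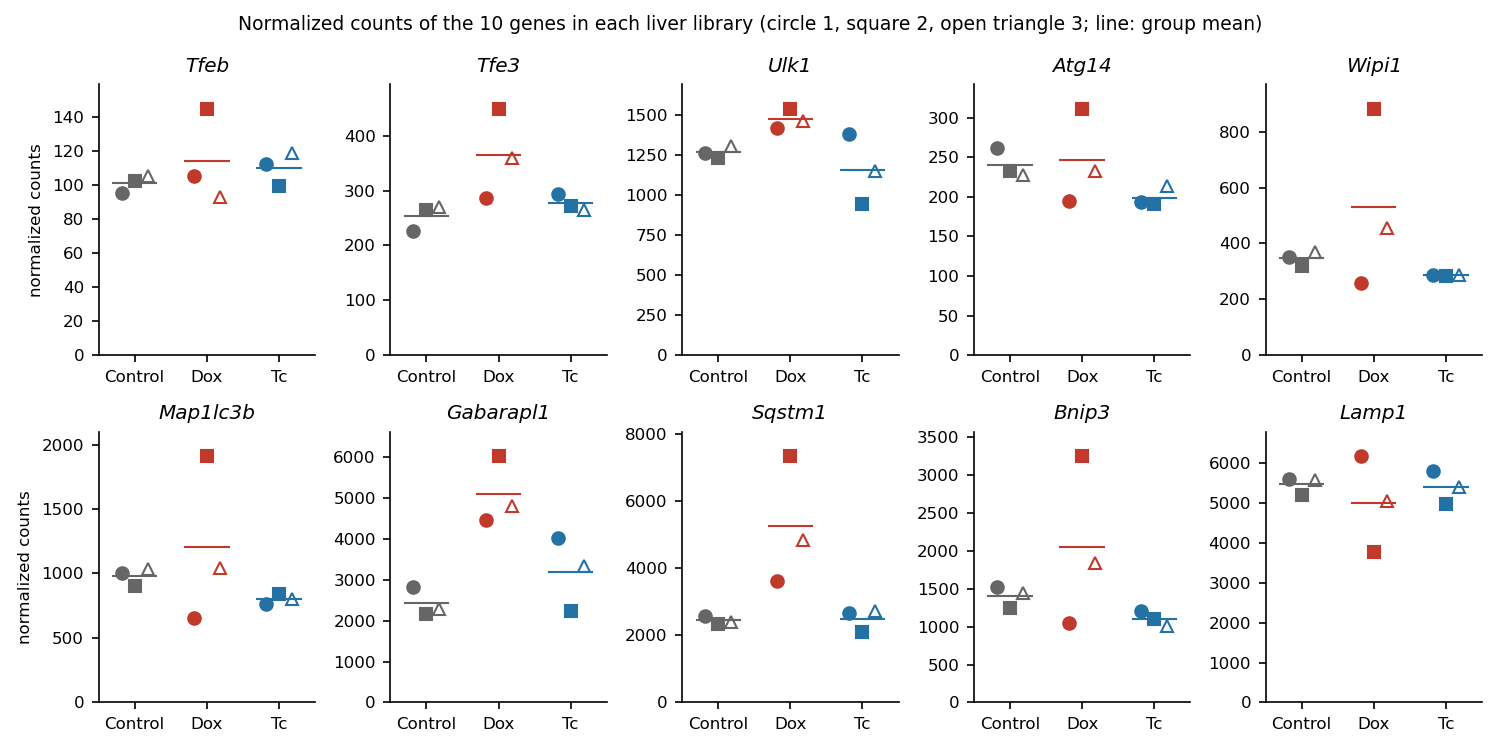
Normalized counts (y axis, linear from 0) of each of the 10 genes in the 9 liver libraries, by group (x axis); circles, squares and open triangles are libraries 1, 2 and 3, and the line is the group mean. Dox 2 was the highest of the 9 libraries for 9 genes and the lowest for Lamp1, and all Dox libraries lay above all controls for Tfe3, Ulk1, Gabarapl1 and Sqstm1.

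The transcription factors were the members with the lowest levels per length of exon. Tfeb (ENSMUSG00000023990, chromosome 17, 47737030 to 47792419, plus strand, GRCm38), which encodes a master regulator of lysosome genes, had 95.3, 102.6 and 105.5 normalized counts in the control libraries 1 to 3, 105.3, 144.9 and 93.3 with Dox and 112.3, 99.8 and 118.8 with Tc. The groups overlapped, and Dox 2 alone stood above the rest. Its log2 fold change with Dox was 0.15 ± 0.18 (SE, limma), adjusted p = 0.60, and with Tc 0.12 ± 0.18, adjusted p = 0.85.

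Tfe3 (ENSMUSG00000000134, chromosome X, 7762560 to 7775202, plus strand), the relative that shares TFEB's targets, had 225.5, 265.4 and 269.5 in controls, 286.4, 448.6 and 359 with Dox and 293, 271.6 and 265.3 with Tc. Each Dox library lay above each control, and the lowest Dox library lay below the highest Tc library. On the log2 scale the difference with Dox was 0.50 ± 0.17, with an unadjusted p of 0.0176 and an adjusted p of 0.101 by limma, and with Tc 0.13 ± 0.17, adjusted p = 0.84.

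Ulk1 (ENSMUSG00000029512, chromosome 5, 110784488 to 110810097, minus strand), the kinase that starts autophagy, differed least of the 10 genes between Dox 1 and Dox 2. It had 1262, 1232 and 1303 normalized counts in controls, 1415, 1536 and 1463 with Dox and 1381, 941.5 and 1148 with Tc. Every Dox library lay above every control and every Tc library, by a small amount. The log2 fold change was 0.22 ± 0.15 with Dox (adjusted p = 0.36, limma), -0.15 ± 0.15 with Tc (adjusted p = 0.77), and Tc 2 held the lowest of the 9 values.

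Atg14 (ENSMUSG00000037526, chromosome 14, 47540893 to 47570649, minus strand), the subunit that directs the PI3-kinase to the site where the vesicle forms, had 261.5, 232.7 and 227.6 in controls, 194.8, 310.6 and 233.1 with Dox and 193.3, 190.6 and 213.1 with Tc. Dox 1 lay below all controls and Dox 2 above them, so that the groups overlapped, while all Tc libraries lay below all controls. On average the log2 fold change was 0.01 ± 0.18 with Dox, adjusted p = 0.98, and -0.27 ± 0.18 with Tc, adjusted p = 0.61 by limma.

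Wipi1 (ENSMUSG00000041895, chromosome 11, 109573331 to 109611967, minus strand) encodes a reader of the lipid made by that kinase. It had 351.4, 320.3 and 368.7 in controls, 256.9, 881.1 and 456.6 with Dox and 288.1, 283.3 and 287.2 with Tc. Its Dox libraries stood on both sides of the controls, with Dox 2 above Dox 1 by 3.43-fold, the widest such ratio of the 10 genes. Its Tc libraries were nearly equal and all below the controls. The log2 fold change was 0.44 ± 0.36 with Dox (adjusted p = 0.45) and -0.27 ± 0.36 with Tc (adjusted p = 0.84) by limma.

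Both ATG8 genes among the members encode proteins that are fixed to the growing membrane, and their values differed in kind. Map1lc3b (ENSMUSG00000031812, chromosome 8, 121590361 to 121598760, plus strand), which encodes LC3B, had 1003.5, 905 and 1031 in controls, 657.1, 1908 and 1045 with Dox and 764.6, 844.4 and 800.1 with Tc. Its groups overlapped with Dox, where Dox 2 stood 2.90-fold above Dox 1, and not with Tc, where all values were below the controls. For Map1lc3b the log2 fold change was 0.16 ± 0.32 with Dox (adjusted p = 0.76) and -0.29 ± 0.32 with Tc (adjusted p = 0.80) by limma.

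Gabarapl1 (ENSMUSG00000030161, chromosome 6, 129533160 to 129542346, plus strand) rose with Dox in the fit of 9 libraries. It had 2815, 2167 and 2285 normalized counts in controls, 4453, 6022 and 4804 with Dox and 4034, 2239 and 3336 with Tc. Each Dox library exceeded each control and each Tc library, and the ratio of Dox 2 to Dox 1 was 1.35. The fold change with Dox was 2.10 (95% interval 1.45 to 3.04, limma), adjusted p = 0.0315, and by DESeq2 the adjusted p was 6.53e-04. Without libraries 3 the log2 fold change was 1.07 again, with an unadjusted p of 0.0355 and an adjusted p of 0.572 by limma and of 0.338 by DESeq2. Tc 1 and Tc 3 stood above all controls and Tc 2 among them, and the log2 fold change with Tc was 0.37 ± 0.24, adjusted p = 0.60. In the GRCm38 annotation, 28.3% of the exon bases of Gabarapl1 are shared with a transcript on the opposite strand (1700101I11Rik), which had at most 6.19 normalized counts in any library.

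The cargo receptor Sqstm1 (ENSMUSG00000015837, chromosome 11, 50199366 to 50210827, minus strand) encodes p62, which binds ubiquitinated cargo and is itself degraded by autophagy; its gene is also a target of NRF2. It had 2582, 2352 and 2404 normalized counts in controls, 3634, 7337 and 4848 with Dox and 2667, 2107 and 2724 with Tc. All Dox libraries lay above all of the others, Dox 2 was 2.02-fold above Dox 1, and the Tc libraries lay on both sides of the controls. The fold change with Dox was 2.07 (95% interval 1.41 to 3.04, limma), adjusted p = 0.0363, and by DESeq2 the adjusted p was 7.9e-04. Without libraries 3 the unadjusted p was 0.0390, and the adjusted p was 0.573 by limma and 0.290 by DESeq2. With Tc the log2 fold change was 0.02 ± 0.24, adjusted p = 0.99. Sqstm1 shares 17.3% of its exon bases with Mrnip on the opposite strand, which had between 12.7 and 74.8 normalized counts.

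Both calls depended on single libraries. With any one of Control 1, Control 2, Control 3, Dox 2, Dox 3 or Tc 3 left out, neither gene was called, and without Tc 1 only Gabarapl1 was. Both were called without Dox 1 and without Tc 2. Without Dox 2 the call of Sqstm1 was lost at the fold limit, at a log2 fold change of 0.78 with an adjusted p of 0.0139 by limma. Over these 9 fits the log2 fold change with Dox ranged from 0.94 to 1.18 for Gabarapl1 and from 0.78 to 1.29 for Sqstm1, and the adjusted p by limma from 0.0192 to 0.123 and from 0.010 to 0.130. With only the Dox and Control libraries in the fit, the adjusted p was 0.0399 for Gabarapl1 and 0.0912 for Sqstm1.

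Bnip3 (ENSMUSG00000078566, chromosome 7, 138890836 to 138909519, minus strand), a receptor on the outer mitochondrial membrane that marks mitochondria for autophagy, had 1529.6, 1247 and 1444 in controls, 1045, 3248.5 and 1843 with Dox and 1202, 1099 and 1009 with Tc. Dox 1 lay below all controls and Dox 2, at 3.11-fold the value of Dox 1, above them, and all Tc libraries lay below all controls. For Bnip3 the log2 fold change was 0.39 ± 0.34 with Dox (adjusted p = 0.47) and -0.35 ± 0.34 with Tc (adjusted p = 0.77) by limma. Bnip3 shares 22.3% of its exon bases with Gm45507 on the opposite strand, which had at most 0.842 normalized counts.

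Lamp1 (ENSMUSG00000031447, chromosome 8, 13159161 to 13175338, plus strand), the glycoprotein that lines the lysosome, went the other way. It had 5609, 5215 and 5590.2 in controls, 6176, 3765 and 5062 with Dox and 5801, 4985.5 and 5415.5 with Tc. Dox 1 was the highest and Dox 2 the lowest of the 9 libraries, so that the Dox mean stood between values with a ratio of 0.61. The log2 fold change was -0.16 ± 0.19 with Dox (adjusted p = 0.61) and -0.02 ± 0.19 with Tc (adjusted p = 0.98) by limma; with libraries scaled to the same total the difference with Dox was 0.02.

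Per kilobase of exon, the levels in the control livers spanned 2 orders of magnitude. Lamp1 was highest, with a control mean of 2045 normalized counts per kilobase, followed by Gabarapl1 with 1203, Sqstm1 with 728.8, Bnip3 with 621.2, Ulk1 with 195.1, Map1lc3b with 130.4, Wipi1 with 78.6, Atg14 with 55.7, Tfe3 with 27.4 and Tfeb with 17.8. No neighbours in this order overlapped between control libraries; the closest were Sqstm1, from 700.7 to 769.3, and Bnip3, from 550.7 to 675.3. With Dox the top of the order was no longer separated, with Lamp1 from 1407 to 2309, Gabarapl1 from 2212 to 2991.5 and Sqstm1 from 1083 to 2186. Per length, both transcription factors lay below every other member in every control library.

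Between the Dox libraries, 9 of the 10 genes differed in the same direction. The size of the difference between Dox 1 and Dox 2 was that of other genes, with a median of 0.69 on the log2 scale over the members and 0.70 over all tested genes. The signed median of Dox 2 over Dox 1 was 0.66 for the members and 0.02 for all tested genes. Dox 2 held the highest of the 9 values for 9 of 10 members, against 33.4% of all tested genes and 59 of 163 other tested genes of the pathway, and the lowest for Lamp1, against 32.1%. It exceeded Dox 1 over 2-fold for Sqstm1, Map1lc3b, Wipi1 and Bnip3, 4 of 10, against 17.7% of all tested genes.

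Relative to the controls, the members fell into distinct arrangements. For Tfe3, Sqstm1, Gabarapl1 and Ulk1, 4 of 10, all Dox libraries lay above all controls, against 16.1% of all tested genes. For Map1lc3b, Wipi1, Bnip3 and Atg14, also 4 of 10, Dox 1 lay below all controls and Dox 2 above all of them, against 13.3% of all tested genes and 16 of 163 other pathway genes. For Map1lc3b, Wipi1, Bnip3 and Atg14 all Tc libraries also lay below all controls, as for 14.9% of all tested genes and 25 of 163 other pathway genes; the comparisons share the control libraries. For Lamp1 alone Dox 1 lay above and Dox 2 below all controls, as for 16.5% of all tested genes, and Tfeb fitted none of these. No member differed over 2-fold between Control 1 and 2, against 4.84% of all tested genes, or between Tc 1 and 2, against 8.45%.

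**Figure D2:**
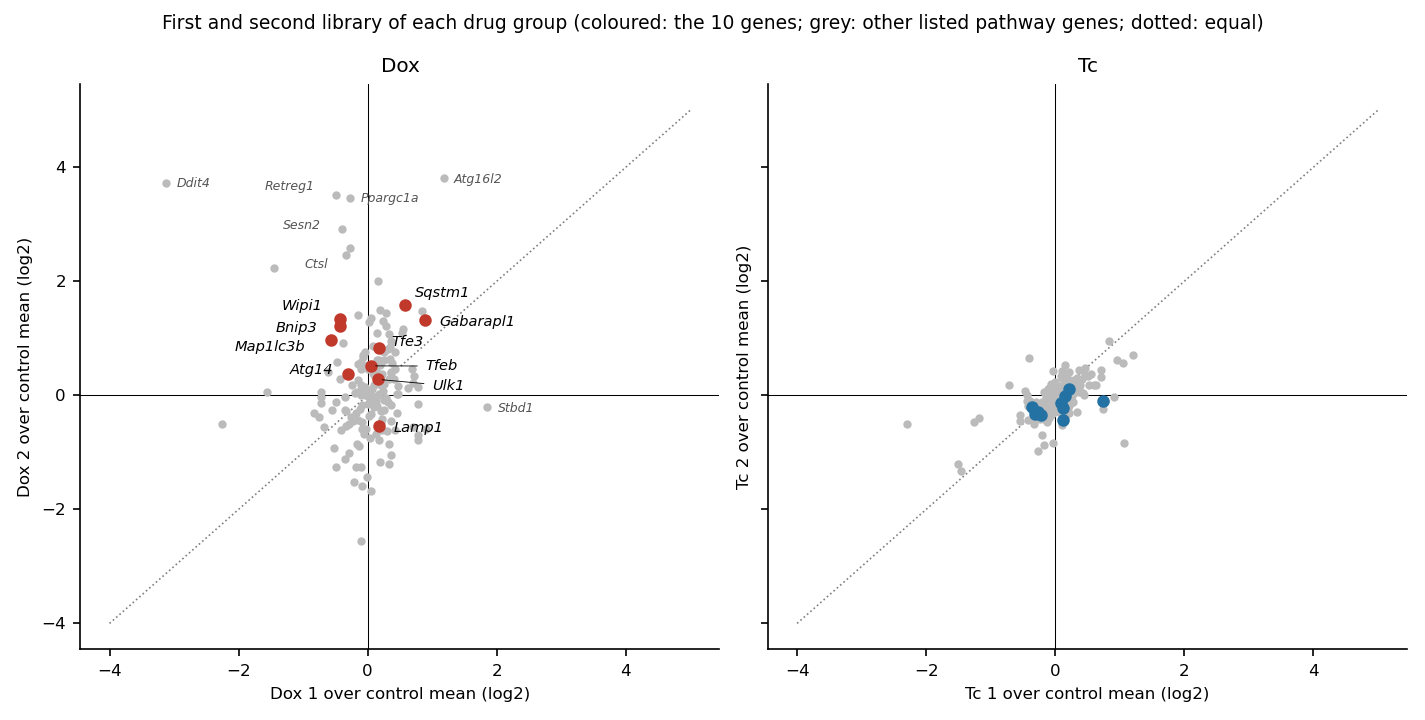
Dox 2 against Dox 1 (left) and Tc 2 against Tc 1 (right), each as log2 of the library's value over the control mean; large coloured points are the 10 genes, grey points the other tested pathway genes, solid lines mark the control mean and the dotted line equal values. In Dox, 9 of the 10 genes lay above the dotted line and Lamp1 below it, and Wipi1, Bnip3, Map1lc3b and Atg14 lay left of the control mean in Dox 1 and above it in Dox 2. In Tc the 10 genes lay between -0.43 and 0.75 on both axes, and among the grey points Ddit4 lay furthest left, at -2.30.

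Dox and Tc were compared at the same concentration in water and over the same time, which gives 1 pair of drugs. Equal concentration need not mean equal dose, since intake was not given. Sqstm1 was 2.04-fold higher with Dox than with Tc (95% interval 1.39 to 2.99), with an adjusted p of 0.104 by limma and of 0.00277 by DESeq2, and without libraries 3 of 0.755 and 0.493. Gabarapl1 was 1.62-fold higher (1.12 to 2.35), adjusted p = 0.166 by limma, and Ulk1 1.29-fold higher (1.02 to 1.63), adjusted p = 0.212. For these 3 genes all Dox libraries exceeded all Tc libraries, as they did for 12.2% of all tested genes. A block for the replicate number put the adjusted p of Sqstm1 at 0.167.

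For the other 7 genes the groups overlapped and the intervals were wide. The fold of Dox over Tc was 1.67 for Bnip3 (95% interval 0.97 to 2.88), 1.64 for Wipi1 (0.92 to 2.91), 1.36 for Map1lc3b (0.82 to 2.26), 1.30 for Tfe3 (0.99 to 1.70), 1.21 for Atg14 (0.92 to 1.60), 1.02 for Tfeb (0.77 to 1.36) and 0.91 for Lamp1 (0.67 to 1.23), with adjusted p-values from 0.244 to 0.924 by limma. Changes over 2-fold between the drugs lay outside the intervals of Tfeb, Tfe3, Atg14, Lamp1 and Ulk1 and inside those of the others. These intervals come from all 9 libraries and are too narrow where library 3 repeats the others.

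**Figure D3:**
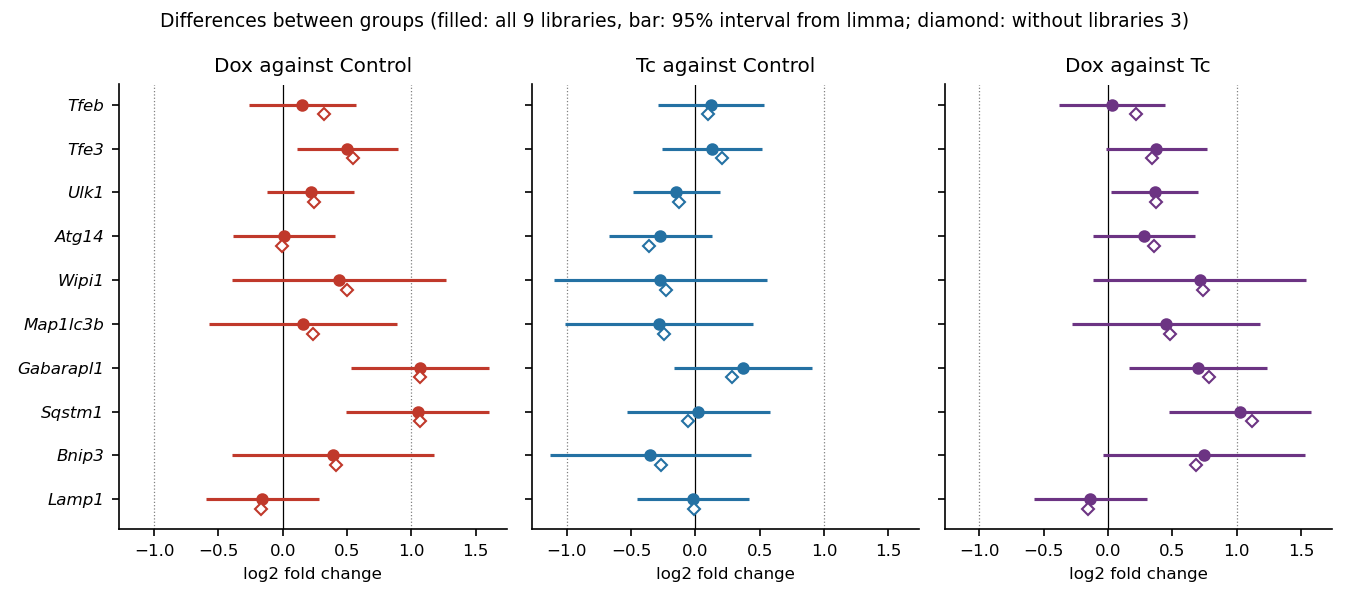
Log2 fold changes of the 10 genes for the 3 comparisons, with 95% intervals from limma over 9 libraries (filled circles and bars) and the fold changes without libraries 3 (open diamonds); dotted lines mark 2-fold. With Dox against Control only Gabarapl1 and Sqstm1 lay beyond 2-fold, at 1.07 and 1.05, and in that comparison the widest gap between a circle and its diamond was that of Tfeb.

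The rest of the pathway was read from 15 lists of genes by step, with 163 tested genes besides the members. By limma, 2 of these were called with Dox against Control, both higher, 0 with Tc, and 1 with Dox against Tc, higher (0.0413%). At an unadjusted p under 0.05 by limma, 33 were higher and 22 lower with Dox (13.6% and 15.4% of all tested genes), 8 higher and 7 lower with Tc (5.27% and 6.4%), and 24 higher and 7 lower with Dox against Tc (10.6% and 11.1%). The shares of all genes called are those given with the members. The median log2 fold change of the 163 was 0.07 with Dox and 0.01 with Tc, against 0.31 and -0.08 for the 10 members. The members' median over the control mean was 0.11 in Dox 1, 0.89 in Dox 2 and 0.30 in Dox 3, and with libraries scaled to the same total their median with Dox was 0.48, where that of all tested genes was 0.17. Without libraries 3 limma called 0 of them in each comparison (unadjusted p under 0.05: 5 higher and 2 lower with Dox, against 3.22% and 5.36% of all genes), and DESeq2 called Trib3 alone, between the drugs. DESeq2 with 9 libraries called 8 higher with Dox (Ctsl, Retreg1, Atg2a, Sesn2, Ppargc1a, Fnip1, Atg16l2 and Sesn1, the last named after its values were seen). With Tc DESeq2 called Trib3, lower, and between the drugs 8 higher and 1 lower (2.23% and 2.44% of all genes).

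Among the regulators of TFEB, Fnip1, which with folliculin lets amino acids hold TFEB in the cytoplasm, rose with Dox. It had 590.7, 496.3 and 555.6 normalized counts in controls, 975.1, 1532 and 1151 with Dox and 831, 622.3 and 661.1 with Tc. All Dox libraries and all Tc libraries lay above all controls. The log2 fold change was 1.13 ± 0.19 with Dox (adjusted p = 0.0148) and 0.36 ± 0.19 with Tc (adjusted p = 0.52) by limma, and without libraries 3 the adjusted p with Dox was 0.558. The median of the 22 tested genes of this list was 0.14 with Dox, and Flcn (-0.43 with Tc) and Rragd (0.85 between the drugs) were the furthest from 0 in the other comparisons. Rragd had low values, 17.9, 55.2 and 23.8 with Dox and 19.5, 10.8 and 17.7 with Tc, so that Dox 1 lay among the Tc libraries. Among the factors themselves, Tfec stood furthest from 0, at -1.30 with Dox (adjusted p = 0.117) and -1.12 with Tc, and the median of the 4 was -0.04 with Dox.

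In the machinery upstream of the ATG8 proteins, limma called no gene besides Atg16l2, and DESeq2 also called Atg2a with Dox and Ulk2 between the drugs. The medians with Dox were 0.22 for the 5 genes of the initiation kinase complex, 0.02 for the 8 of the PI3-kinase complex, 0.43 for the 10 that supply or read the membrane and -0.17 for the 11 of ATG8 conjugation. The genes furthest from 0 with Dox were Rb1cc1, which holds ULK1 (0.69, adjusted p = 0.0639), Rubcn, an inhibitor (-0.70, adjusted p = 0.20), and Atg2a, a lipid carrier (1.05, adjusted p = 0.124). With Tc they were Ulk2 (0.79), Atg14 and Wdr45b (0.48), and Ulk2 stood at -1.14 between the drugs. For Atg2a, Dox 1 (981.4) lay among the controls (766.1 to 1008.8) and Dox 2 was at 3547.5. For Rubcn, Dox 1 (255.9) lay among the controls (249.2 to 315) and Dox 2 was at 89.7. Atg16l2, a relative of the scaffold of ATG8 conjugation, had 47.6, 35.4 and 29.2 in controls, 84.2, 524.5 and 237.5 with Dox and 63.5, 34.2 and 61.5 with Tc. All its Dox libraries were above all others, with a log2 fold change of 2.55 ± 0.58 (adjusted p = 0.0350, limma) and an adjusted p of 0.573 without libraries 3.

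Gabarapl1 was the one gene of the 5 ATG8 genes that limma or DESeq2 called, and Map1lc3a, Gabarap and Gabarapl2 had log2 fold changes of 0.17, -0.05 and 0.10 with Dox. Sqstm1 was the one of 13 cargo receptors called by limma, and the median of that list was 0.41 for Dox and 0.03 for Tc. Retreg1, a receptor for the endoplasmic reticulum, had 537 to 1266 in controls, 614.9, 9954 and 3780.4 with Dox and 441.5 to 720.7 with Tc, with Dox 2 far above the rest, and Stbd1, a glycogen receptor, was furthest from 0 with Tc, at 0.98. Of the 8 mitophagy genes, with a median of 0.14 with Dox, Bnip3l, the relative of Bnip3, had 388.4 to 543 in controls, 482.3, 1158 and 663.4 with Dox and 414.4 to 464.8 with Tc, so that Dox 2 was again the highest. Fundc1 stood at -0.39 with Tc.

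At the lysosome, where Lamp1 acts, the medians with Dox were -0.01 for 14 genes of lysosome fusion, 0.07 for 11 lysosomal membrane proteins and 0.03 for 15 genes of the proton pump (V-ATPase), with no gene called by limma or DESeq2. The genes furthest from 0 in these lists were Snap29 (0.37 with Dox and 0.41 with Tc), Tecpr1 (0.65 between the drugs), Npc1 (0.78 with Dox, adjusted p = 0.0504), Cd63 (-0.73 with Tc and 1.27 between the drugs), Atp6v1e1 (0.60 with Dox, adjusted p = 0.0689) and Atp6v0c (-0.32 with Tc). Cd63 had 24.2 in Dox 1, below all Tc libraries (29.3 to 51.3), and 322.1 in Dox 2. Tecpr1 had 101.1 in Dox 1, among the Tc libraries (89.8 to 114.5), and 250.8 in Dox 2. Snap29 had 383.3 in Dox 1 and 201.3 in Dox 2, on both sides of the controls (213.8 to 237.7).

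The lysosomal hydrolases were the list whose median was lowest with Dox, at -0.34, with -0.10 for Tc. At an unadjusted p under 0.05, 10 of 26 were lower and 0 higher, where 15.4% of all tested genes were lower, and without libraries 3 it was 1 of 26, where 5.36% were. In both Dox 1 and Dox 2, 9 of 26 lay below all controls, against 17.9% of all tested genes. Ctsl, cathepsin L, had 5298 to 6949 in controls, 4739.5, 32727 and 14183 with Dox and 4417 to 5605 with Tc, high in Dox 2 and Dox 3, and Lgmn stood at -0.88 with Tc. Of 135 other pathway genes with a promoter window, 34 held CACGTG, among them 11 of 21 hydrolases, against 8.09% of all genes with a window, tested in liver or not.

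Markers of some other liver cells were lower with the drugs as well. The 11 Kupffer cell markers summed to between 10439 and 19296 in controls, 2837 and 9712 with Dox and 5075 and 9987 with Tc, and 7 of 11 were lower without overlap with each drug, against 17.1% of all tested genes with Dox and 14.9% with Tc. The 6 markers of sinusoidal endothelial cells summed to between 4519 and 4700.3 in controls, 2214 and 2708 with Dox and 3441 and 4042 with Tc, with 5 and 4 of 6 lower. None of these was at 0 in any library. The 6 hepatocyte markers summed to between 1108640 and 1581950 in controls, 573168 and 805223 with Dox and 792063 and 1246190 with Tc, so that the sums with Dox lay below all controls, while 1 of the 6 genes was lower and 1 higher without overlap. The sums of 6 stellate cell markers overlapped, with means of 2970 in controls, 2798 with Dox and 3007 with Tc. The 5 cholangiocyte markers had mean sums of 215, 264 and 288, with 2 of 5 higher without overlap with Dox, against 16.1% of all tested genes. Their sums were 199.9 to 243.5 in controls, and with Dox lay on both sides, at 371.7 in Dox 1 and 148.4 in Dox 2. The mean sums were 54.9, 22.1 and 30.4 for 6 lymphocyte markers, 172, 57.8 and 44.5 for 6 neutrophil markers and 3334, 1564 and 1583 for 4 erythroid markers, in the same order. Neutrophil sums overlapped, from 34.9 to 299 in controls, 3.2 to 133 with Dox and 6.8 to 98.9 with Tc. Erythroid sums overlapped too, from 1308 to 5237 in controls, 694 to 2346 with Dox and 1164 to 2006 with Tc. Lower without overlap were 3 of 4 erythroid markers with each drug, against 17.1% of all tested genes with Dox and 14.9% with Tc. So were 3 of 6 lymphocyte markers with Dox and 2 with Tc, and 1 of 6 neutrophil markers with each drug. At 0 in some library were 2 lymphocyte and 3 neutrophil markers. Macrophages and sinusoidal endothelial cells are rich in lysosomes, and their part in the hydrolase, Lamp1 and Tfec values was not tested.

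Wide gaps between the Dox libraries, like those of Wipi1 and Bnip3, were also seen among other regulators. Ppargc1a, a coactivator of fasting and mitochondrial genes, had 82.3 to 204.3 in controls, 108.5, 1463 and 604.4 with Dox and 126 to 151.1 with Tc. Ddit4, an mTORC1 inhibitor induced by stress, had 311.2 to 641.4 in controls, 49.5, 5792 and 2130 with Dox and 87.9 to 306.6 with Tc. Sesn2, a leucine sensor, had 96.3 to 118.2 in controls and 83.2, 840.9 and 311.4 with Dox. For these 3 genes Dox 2 was the highest of the libraries given, but other genes of their lists went the other way. Of the 12 other transcription factors, Dox 2 was the highest of the 9 libraries for 6 and the lowest for 3. Of the 9 stress inhibitors of mTORC1 it was the highest for 4 and the lowest for 3. Over all tested genes these shares were 33.4% and 32.1%. The medians of the 2 lists with Dox were 0.45 and 0.35, and Ppara stood at 0.85 with Tc (adjusted p = 0.38 by limma).

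Trib3, an inhibitor of AKT that responds to amino acid stress, was the one pathway gene that limma called between the drugs. It had 201.1, 141.6 and 165.3 in controls, 176.9, 306 and 181.2 with Dox and 60.5, 66.5 and 75.8 with Tc. All Tc libraries lay below all others, while Dox overlapped the controls. Dox was 3.15-fold above Tc (95% interval 2.16 to 4.58), adjusted p = 0.0498 by limma, 0.102 under the block, and 0.0342 by DESeq2 without libraries 3. Against Control the log2 fold change with Tc was -1.30 ± 0.24, adjusted p = 0.0898 by limma and 0.0010 by DESeq2.

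The 3 calls of other pathway genes depended on single libraries as well. Over the 9 fits that left out 1 library, Fnip1 was lost without Control 2, Control 3, Dox 2 or Dox 3. Atg16l2 was lost without Control 1, Control 2, Control 3, Dox 3, Tc 1 or Tc 3, and Trib3 in every fit except those without Dox 1 or Dox 2.

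**Figure D4:**
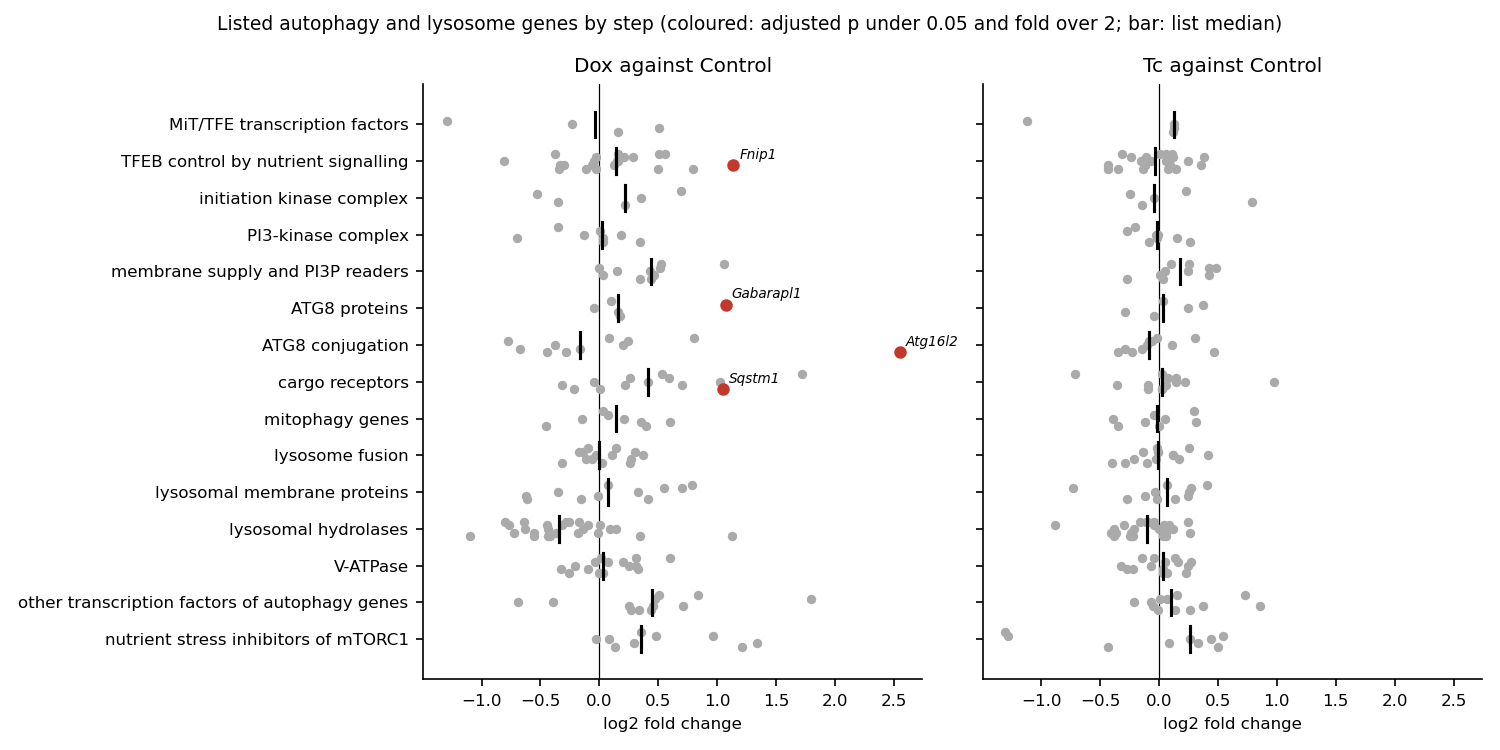
Log2 fold change (x axis) of the 163 genes and the members by list, with Dox (left) and Tc (right) against Control; each row is a step of the pathway, the bar its median, and coloured points passed the limma test with a fold over 2. With Dox the coloured points are Fnip1, Gabarapl1, Atg16l2 and Sqstm1, all on the right, the bar of the hydrolases stands at -0.34, and no point is coloured with Tc.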

How the data were processed

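Liver RNA was made into 9 mouse libraries, 3 per group (Control, Dox and Tc), with a directional kit and sequenced single-end. The authors trimmed the reads with cutadapt, aligned them with STAR 2.7.11ac to mm10, counted them per gene with HTSeq 2.0.5 on GENCODE annotation and normalized them with DESeq2 1.42.0. The authors deposited normalized counts, a signal in which each library's counts are divided by its own size factor. The strand setting of the counting is not given in the sources used here, so reads of a gene and of an antisense partner may be mixed.

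Whole reads were recovered for 100% of the values (within 0.01 read) and range from 7426136 to 12183041 a library. Counting error was not measured apart from the spread between libraries, and it weighs most on members with few counts, such as Tfeb. Log2(normalized count + 1) was fitted in R 4.3.3 by limma 3.58.1 with a mean-variance trend, over the 12100 genes whose mean reached 10, as 3 comparisons in 1 model of all 9 libraries; such fold changes understate those of low genes. DESeq2 1.42.0 and edgeR 4.0.16 were run on recovered reads as alternatives, and each tool was tested on simulated data. Intervals are at 95%. Gene coordinates and exon lengths are those of GENCODE annotation of GRCm38, and promoter windows those of RefSeq. The study calls the samples of a group independent, as biological replicates, but the labels name no mouse behind a library, and p-values measure only the spread between these libraries.

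For Dox and Tc, deviations from the group mean correlated between libraries of the same number (r = 0.287, 0.321 and 0.182). Deviations within a group sum to 0 and libraries 3 may be mixtures of the others, so these r values are not 3 separate measures. The labels give no pairing, whether libraries were paired was not tested, and the replicate block is an alternative only. For Control against either drug r lay between -0.08 and 0.06. The libraries numbered 3 may not be independent of the others, and calls are given with and without them. The numbers are those of the labels.

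The members, the 15 pathway lists (166 genes besides the members, 164 found) and the tests were chosen with earlier results of these data known. Named besides the members were listed genes called in any comparison (at most 5 per list and comparison) and, for a list with no call in a comparison, the gene with the largest log2 fold change. One listed gene is not reported here and is in no count of the lists. Map1lc3a, Gabarap and Gabarapl2 were named to complete the ATG8 list. Alternatives covered the pseudocount, the filter, the scaling, the tool, the groups fitted, array weights, the thresholds, a replicate block, and fits that left out 1 library or all libraries 3.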

Additional observations from a re-analysis of the deposited data

How the results depend on the processing

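Leaving out library 3 of each group gave 0 members called with Dox by limma and by DESeq2. The number of members called with Dox (2 in the model of all 9 libraries) was 1 with only the 2 groups compared or with array weights (whose estimation stopped before full convergence), and 0 with a replicate block, in all 9 libraries or in the 2 groups compared. With array weights Sqstm1 was lost at the fold limit, at a log2 fold change of 0.993 (adjusted p = 1.68e-06, limma). The block counts 0 against 2 because Sqstm1 had an adjusted p of 0.0658 and Gabarapl1 of 0.0536 under it, by limma. By the labels, libraries of different groups share only a number. Between the drugs (0 members) it was 1 by DESeq2 and 1 at an unadjusted p under 0.05 with a fold over 2. With each library left out, the number was 0 to 2 with Dox and, between the drugs, 0 to 3 (3 without Dox 1), and stayed at 0 with Tc.

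Other pathway genes called with Dox (2 of 163) were 8 by DESeq2 (8.71% of all genes) and 8 with no fold limit (8.41% of all genes). They were 10 with array weights, 4 at an unadjusted p under 0.05 with a fold over 2, and 1 with only the 2 groups compared. The replicate block gave 1 and 0 (all 9 libraries, 2 groups), and leaving out libraries 3 gave 0 by either tool. With a library left out they were from 0 to 17 (17 without Dox 1, 4 without Dox 2). With Tc (0) they were 1 by DESeq2 (1.41% of all genes), 1 with only the 2 groups compared, 2 with array weights and 3 with the replicate block in 2 groups. At an unadjusted p under 0.05 with a fold over 2 they were 2, and with a library left out from 0 to 1. Between the drugs (1, Trib3) they were 9 by DESeq2 (4.67% of all genes), 10 with array weights and 7 at an unadjusted p under 0.05 with a fold over 2. They were 0 with a pseudocount of 0.1 or 8, no filter, a mean of at least 50, the same total per library, TMM factors or edgeR. They were also 0 with the 2 groups compared, both replicate blocks or limma without libraries 3. With a library left out they were from 0 to 14 (14 without Dox 1). For array weights, the blocks, the 2 groups compared, an unadjusted p with a fold limit and single libraries left out, shares of all genes were not counted. Counts of members and other pathway genes under them therefore stand without a background.

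Some of the members' log2 fold changes changed sign. With array weights Tfeb was -0.14 with Dox and -0.31 between the drugs, and Atg14 -0.017 with Dox. Atg14 with Dox was -0.0052 with TMM factors and -0.0038 without libraries 3. Sqstm1 with Tc was -0.056 and -0.044 without libraries 3 (limma, DESeq2). Scaling to the same total moved the median of all genes by 0.17 with Dox and by 0.16 between the drugs, and gave Lamp1 0.016 and 0.038. With a library left out, the ranges with Dox crossed 0 for Tfeb (-0.028 to 0.29), Map1lc3b (-0.24 to 0.53), Wipi1 (-0.015 to 0.87), Bnip3 (-0.015 to 0.80), Atg14 (-0.17 to 0.16) and Lamp1 (-0.32 to 0.032), with Tc for Sqstm1 (-0.044 to 0.14) and Lamp1 (-0.074 to 0.036), and between the drugs for Tfeb (-0.15 to 0.17) and Lamp1 (-0.30 to 0.053). Tfeb, Map1lc3b, Wipi1, Bnip3, Atg14 and Lamp1 with Dox changed sign without Dox 2. The causes were not tested.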
